A study of Mus musculus with 11 samples.

Results

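Contacts along a 4.2 Mb stretch of mouse chromosome 1 around En1 were compared between wild-type forelimb and wild-type midhindbrain boundary, a pair of embryonic tissues that both express En1. The comparison rests on 6 of the 11 capture Hi-C libraries of the series, 3 per tissue, and on 2 of its 4 contact maps, because the libraries of a tissue were merged into 1 map. Every pair of the 420 bins of 10 kb in chr1:120200001-124400000 (mm9) was eligible, which gives 88410 bin pairs, and the 87153 pairs at least 30 kb apart were used. Capture Hi-C cuts crosslinked chromatin, here with DpnII, religates the ends that lie close together and enriches the products of one region with baits, so that each read pair counts 1 contact between a pair of loci.

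Both tissues were taken from wild-type embryos of embryonic day 9.5, and the strain field gives c57bl6.J X 129S6.sv for every library. The titles of the forelimb libraries carry the tag CD1 and come from an earlier run of library numbers than all others, so tissue, strain tag and library series cannot be told apart in this comparison. The remaining maps are given beside it. They are wild-type forebrain of embryonic day 9.5 (3 libraries) and forelimb of the same stage from mutants with a stop cassette insertion (2 libraries). The forebrain library numbers run on into those of midhindbrain boundary, and the stop-cassette numbers form a separate, later run. The stop-cassette forelimb and forebrain maps share no library with the main comparison and hold a second contrast of limb with brain, although the limb there is mutant. Tissue, genotype and library run cannot be told apart in that contrast. The dissection note in the labels names embryonic day 9.5 or 10.5 and does not say which tissue was taken when. Contact maps hold no expression, so the labelled tissues could not be checked against marker genes.

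As background, En1 encodes a homeodomain transcription factor that patterns the midbrain and hindbrain and the ventral side of the limb bud. Mammalian chromosomes fold into domains within which loci meet more often than across the borders, and these borders, often set by CTCF and cohesin, shape which enhancers can meet a promoter. The title of the series concerns Maenli, a long non-coding RNA, and En1 in congenital malformations of the limb, and the comparison asks whether the same gene sits in the same folding in limb and in brain.

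The region is described by the boundaries of the forebrain map, which split it into 8 intervals. The intervals are named after genes by their order along the chromosome, and no gene was placed in a bin. From left to right they are the Clasp1 to Tfcp2l1 end, the Gli2 interval (chr1:120670001-120980000), the Gli2-Inhbb interval (chr1:120980001-121380000), the Ralb side (chr1:121380001-122050000), the Marco side (chr1:122050001-122470000), the En1 interval (chr1:122470001-123090000), the Insig2-Ddx18 interval (chr1:123090001-123470000) and the desert beyond Ddx18 (chr1:123470001-124400000). Gli2 encodes a transcription factor of hedgehog signalling, Inhbb a subunit of activin and inhibin, Ralb a small GTPase, Marco a scavenger receptor of macrophages, Insig2 an endoplasmic reticulum protein of sterol control and Ddx18 an RNA helicase. In the RefSeq gene order, 9 long non-coding RNA genes and 0 protein-coding genes lie between En1 and Insig2, and 1 long non-coding RNA gene and 0 protein-coding genes lie between Ddx18 and Dpp10.

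The forelimb map held 8823849 contacts and the midhindbrain boundary map 9523316, of which 5471344 and 5288015 joined bins at least 30 kb apart. Read pairs within a single bin made up 18.9% of the forelimb contacts. In the other 3 maps, which all have later library numbers, they made up 24.7% to 25.8%. Contacts are given as observed over expected. The expected count shares the total of each distance among its bin pairs by the bin factors of Knight-Ruiz (KR) balancing, so that 1 means the average for that distance. Comparisons are log2 ratios of this value, forelimb over midhindbrain boundary, with a 95% interval. The intervals cover counting error only, and with 1 map per tissue the tests compare the reads of 2 maps, not the tissues.

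Contacts beyond 1 Mb took a larger share of the forelimb map. From 1010 to 2000 kb the share of contacts at 30 kb or more was 8.54% in forelimb and 8.07% in midhindbrain boundary, with 8.18% in forebrain and 10.2% in stop-cassette forelimb. From 2010 to 4190 kb it was 2.50% in forelimb, 2.24% in midhindbrain boundary, 2.58% in forebrain and 3.21% in stop-cassette forelimb. Between 30 and 100 kb the order of the 2 tissues was the other way, at 30.3% in forelimb and 30.9% in midhindbrain boundary. The forelimb share over 2 Mb was thus above that of midhindbrain boundary but below that of forebrain. Unless stated otherwise, the contact ratios that follow are taken within distance, which removes this difference. The insulation scores given further below are not scaled within distance. Each is set against the mean of squares that span the same distances in the same map.

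The region was first cut into 42 blocks of 100 kb. Of 903 block pairs, 43 (4.76%) differed by at least 0.32 on the log2 scale at an adjusted p under 0.05 (two-sided exact binomial test on the contacts, Benjamini-Hochberg), 21 higher in forelimb (2.33%) and 22 lower (2.44%). The largest difference was 0.52 on the log2 scale and the median size was 0.097. Of the 43 called pairs, 36 fell into 6 groups of pairs of 1 direction that touch by a side or a corner, and 4 such groups held 32. Touching pairs are not independent, and the grouping expected from random placement was not worked out. With 1 scaling factor per map in place of scaling within distance, 84 pairs were called, 75 higher and 9 lower, and 28 of the 43 were called again in the same direction. With the variance inflated by the dispersion over all block pairs (21.0 times the counting variance), 4 pairs stayed called, all lower in forelimb. Of these 4, 3 joined the middle of the En1 interval to the Insig2-Ddx18 interval. In blocks of 50 kb the inflation was 7.01 times, and 19 pairs stayed called, 4 higher in forelimb and 15 lower. The same factor was applied to all pairs of a block size, so at a given ratio pairs with more contacts kept the call more readily.

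**Figure D1:**
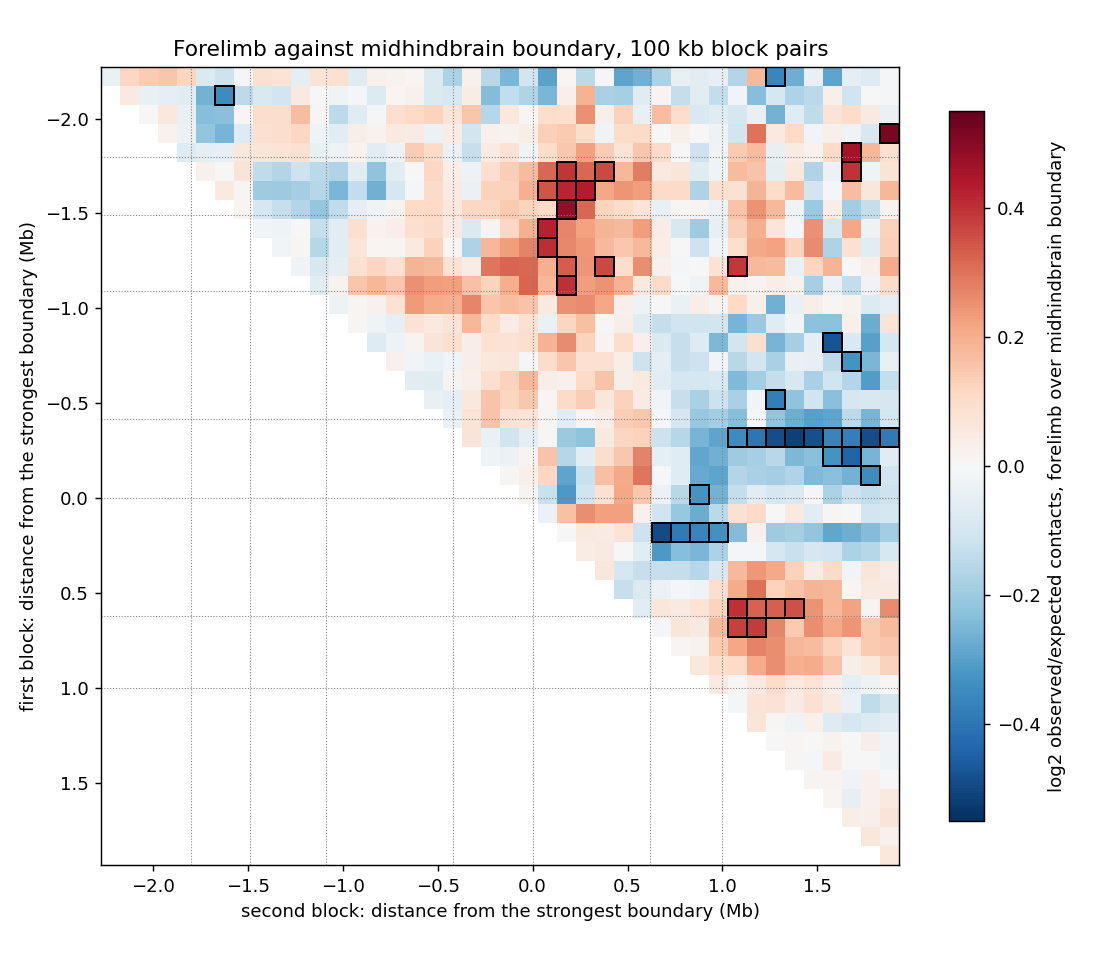
Log2 ratio of observed over expected contacts, wild-type forelimb over midhindbrain boundary, for each pair of 100 kb blocks; both axes give the start of a block as its distance in Mb from the strongest boundary, red is higher in forelimb, blue is lower, black frames mark the 43 called pairs and dotted lines the boundaries of the forebrain map. Called pairs gather in 4 larger groups: a horizontal blue run of 4 pairs and a red run of 6 pairs near the right end of the En1 interval, a red patch of 10 pairs at the top and a blue band of 12 pairs on the right.

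Among the 4 larger groups, the lowest ratio joined the En1 interval to its right neighbour. The block chr1:122600001-122700000, on the left of the middle of the En1 interval, met the 4 blocks of chr1:123100001-123500000, the stretch of the Insig2-Ddx18 interval, less often in forelimb. There were 35098 contacts in forelimb and 47685 in midhindbrain boundary, with 40471 in forebrain and 27056 in stop-cassette forelimb. Observed over expected was 1.12 in forelimb, 1.496 in midhindbrain boundary, 1.31 in forebrain and 1.13 in stop-cassette forelimb. The forelimb maps thus lay together at the low end, forebrain in between and midhindbrain boundary at the top. The log2 ratio was -0.42 (95% interval -0.44 to -0.40), and 27 of 400 bin pairs were higher in forelimb. Counts of bin pairs, here and below, are from block pairs called for their summed ratio. A majority in the called direction is thus favoured by the selection and is no separate evidence.

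The contrast was sharpest where the block met the start of the Insig2-Ddx18 interval. With chr1:123100001-123200000 it had 12999 contacts in forelimb and 19319 in midhindbrain boundary, a log2 ratio of -0.49 (-0.52 to -0.46; exact binomial test, Benjamini-Hochberg adjusted p = 7.06e-199), and 1 of 100 bin pairs was higher in forelimb. In blocks of 50 kb, chr1:122600001-122650000 with chr1:123100001-123150000 had 3633 against 5635 contacts, observed over expected 1.35 against 1.95, and a log2 ratio of -0.53 (-0.59 to -0.47). The same 50 kb block with chr1:123350001-123400000 had 1612 against 2200 contacts and a ratio of -0.53, and there 0 of 25 bin pairs were higher in forelimb. All 5 of the largest lower differences at 50 kb within 1 Mb started in chr1:122600001-122700000. At 50 kb, 247 of 3531 block pairs (7.00%) were called in all, 137 higher (3.88%) and 110 lower (3.12%).

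Single bins of the En1 interval showed how this loss was spread. All 10 bins of chr1:122600001-122700000 made fewer contacts with chr1:123100001-123500000 in forelimb, with log2 ratios from -0.49 to -0.35 and a median of -0.43. To their left, the 13 bins between the strongest boundary and chr1:122600000 had a median of -0.12, and 10 of them had an interval below 0, but the 4 bins nearest to the block, from chr1:122560001, were already at -0.39 to -0.30. The 7 bins drawn to the left of the strongest boundary lay from -0.23 to -0.15, all with intervals below 0. To the right of the block, the 20 bins of chr1:122700001-122900000 had a median of -0.21 and reached -0.38, and the 19 bins up to the end of the En1 interval had a median of 0.05, with 7 intervals above 0 and 2 below. The loss thus ran past both ends of the block, and the ratios near the right end of the interval lay around 0.

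**Figure D2:**
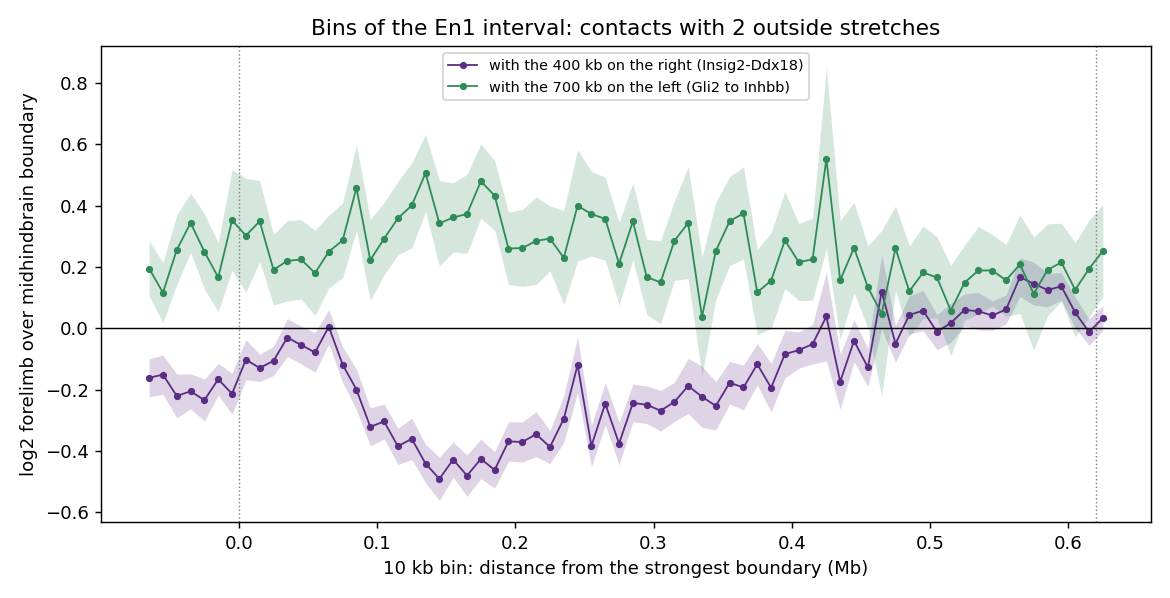
Log2 ratio, forelimb over midhindbrain boundary, for each 10 kb bin from 70 kb left of the strongest boundary to the end of the En1 interval (x axis, Mb from that boundary), for contacts with chr1:123100001-123500000 (purple) and with chr1:120700001-121400000 (green); bands are 95% counting intervals and dotted lines mark the 2 boundaries of the interval. The purple line dips to -0.49 and returns to 0 near the right end, while the green line stays above 0 for every bin.

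The En1 interval met the Gli2 side more often in forelimb. A group of 10 called block pairs joined chr1:120700001-121400000, which covers the Gli2 and Gli2-Inhbb intervals, with chr1:122500001-122900000. There were 16985 contacts in forelimb, 11364 in midhindbrain boundary, 14017 in forebrain and 17465 in stop-cassette forelimb. Observed over expected was 0.945, 0.714, 0.833 and 1.06 in the same order. Midhindbrain boundary was lowest, both forelimb maps were highest, and forebrain stood between them. Of the bin pairs of these called blocks, 754 of 1000 were higher in forelimb, and the log2 ratio was 0.40 (0.37 to 0.44). Over all 28 block pairs of the rectangle, each of them above 0, it was 0.30 (0.28 to 0.32).

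Within this group the largest ratio joined chr1:120900001-121000000 with chr1:122600001-122700000, at 1658 against 1048 contacts, 0.923 against 0.661 observed over expected and a log2 ratio of 0.48 (0.37 to 0.59; exact binomial, Benjamini-Hochberg adjusted p = 2.02e-16). Neither this pair nor any other of the group stayed called with the variance inflated by the dispersion. The block chr1:121100001-121200000 with chr1:122500001-122600000 had 2113 against 1416 contacts and a ratio of 0.41 (0.31 to 0.51). The gain was broad and not limited to the En1 interval. The bins drawn to the left of the strongest boundary had ratios from 0.12 to 0.35 to chr1:120700001-121400000, all with intervals above 0. The whole Marco side also met the Gli2 interval (0.08) and the Gli2-Inhbb interval (0.13) more often. All 62 bins of the En1 interval had a ratio above 0 to chr1:120700001-121400000, and the medians of 4 consecutive stretches of the interval ran from 0.17 to 0.35. The highest of these medians was that of chr1:122600001-122700000, the stretch that met the Insig2-Ddx18 interval less often. That block had the most calls among the 42 blocks together with chr1:122100001-122200000, with 5 partners called higher and 4 called lower, and the highest median size of difference, 0.20.

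Taken over whole intervals, the differences were smaller. None of 36 interval pairs was called at that size (0 higher and 0 lower, both 0%), although 29 had an adjusted p under 0.05 in the same exact binomial test. The largest was the Gli2 interval with the En1 interval, at 25443 against 17842 contacts, 1.04 against 0.854 observed over expected and a log2 ratio of 0.29 (0.26 to 0.32), with 0.942 in forebrain and 1.16 in stop-cassette forelimb. The Gli2-Inhbb interval with the En1 interval followed, at 38188 against 28394 contacts, 0.900 against 0.756 observed over expected and 0.25 (0.23 to 0.27). Contacts of the Gli2 interval with its immediate neighbours were the other way, at -0.15 with the Clasp1 to Tfcp2l1 end and -0.14 with the Gli2-Inhbb interval. Stop-cassette forelimb over forebrain was near 0 for both, at 0.03 and -0.02. Within the En1 interval itself the ratio was 0.03, on 600594 and 562611 contacts, smaller than the differences of its contacts with the Gli2, Gli2-Inhbb and Insig2-Ddx18 intervals (-0.13 for the last) but no smaller than that with the adjacent Marco side (0.02) and close to that with the desert (0.04).

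To the right of En1, forelimb contacts crossed the last boundary more often. A group of 6 called pairs joined chr1:123000001-123200000, the right end of the En1 interval and the start of the Insig2-Ddx18 interval, with chr1:123500001-123900000 in the desert. There were 17458 contacts in forelimb, 14014 in midhindbrain boundary, 14335 in forebrain and 17807 in stop-cassette forelimb. All 4 maps were below the average for the distance, with observed over expected of 0.488 in forelimb, 0.380 in midhindbrain boundary, 0.375 in forebrain and 0.648 in stop-cassette forelimb. The brain maps were alike here and both forelimb maps were above them. The log2 ratio of the tissues was 0.36 (0.33 to 0.39). Without the KR factors it was 0.29, below the minimum of 0.32. The whole Insig2-Ddx18 interval met the desert 0.14 more often on the log2 scale, at 141457 against 129876 contacts.

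The Marco side met the desert less often in forelimb. Over the whole intervals there were 39729 contacts in forelimb and 42526 in midhindbrain boundary, 0.922 against 1.09 observed over expected and a log2 ratio of -0.24 (-0.26 to -0.22), while stop-cassette forelimb over forebrain was -0.08. A group of 12 called pairs joined chr1:122100001-122400000 with chr1:123500001-124400000, and held 12 of the 27 block pairs of that rectangle, at 9445 contacts in forelimb, 11165 in midhindbrain boundary, 9716 in forebrain and 7570 in stop-cassette forelimb. Observed over expected was 0.847 in forelimb, 1.13 in midhindbrain boundary, 0.881 in forebrain and 0.662 in stop-cassette forelimb. Midhindbrain boundary stood above the other 3 maps, and wild-type forelimb lay close to forebrain, with a log2 ratio between them of -0.06. Against midhindbrain boundary the ratio was -0.41 (-0.45 to -0.37), and 360 of 1200 bin pairs were higher in forelimb. Over all 27 pairs, each of them below 0, it was -0.27 (-0.30 to -0.25), with 0.910 in forelimb, 1.097 in midhindbrain boundary, 0.873 in forebrain and 0.776 in stop-cassette forelimb, so that there wild-type forelimb lay above forebrain. With 1 scaling factor per map the ratio of the 12 pairs was -0.27, below the minimum of 0.32. The block chr1:122100001-122200000 carried 9 of the lower calls, the largest of them with chr1:123800001-123900000 at 802 against 998 contacts and -0.52 (-0.65 to -0.38). These contacts span over 1 Mb, the range in which the maps differ in their share of contacts, whose part in the result was not tested beyond scaling within distance.

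**Figure D3:**
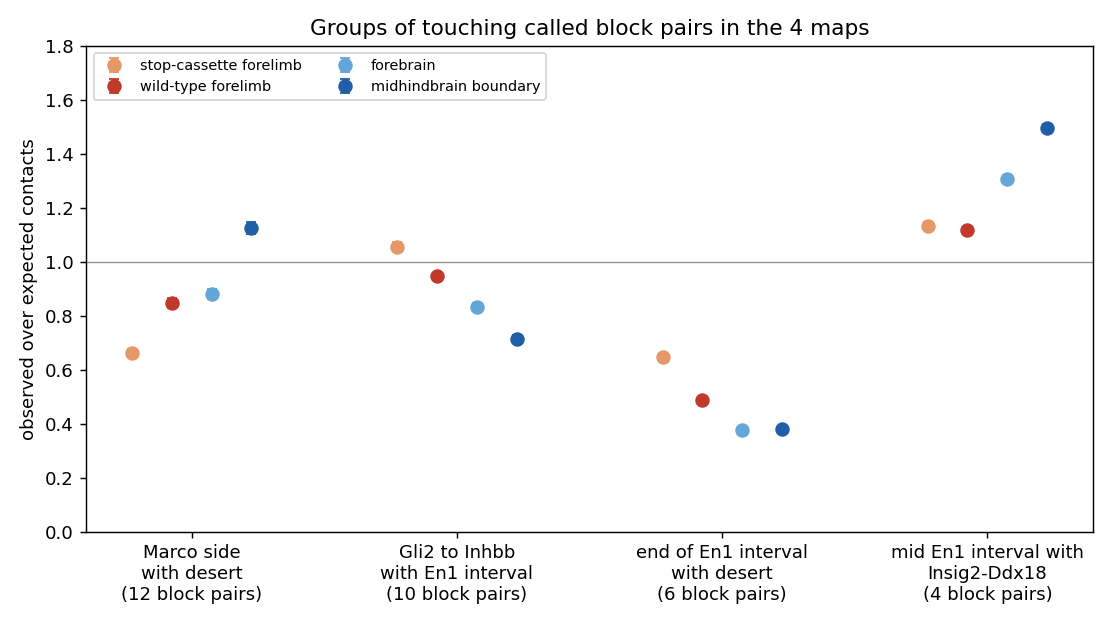
Observed over expected contacts (y axis, 1 is the average for the distance) of the 4 largest groups of touching called 100 kb block pairs in the 4 maps; points are 1 merged map each and bars are 95% counting intervals, often smaller than the point. Over these called pairs both forelimb maps lie on one side of both brain maps in each group, by 0.847 against 0.881 for the nearest pair in the first, where the order of forelimb and forebrain turns over all 27 pairs of the rectangle.

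Of the 11 called pairs outside these groups, the one with the most contacts joined chr1:122400001-122500000, which holds the strongest boundary, with chr1:123300001-123400000 in the Insig2-Ddx18 interval. It had 10452 contacts in forelimb and 12194 in midhindbrain boundary, 2.43 against 3.06 observed over expected and a log2 ratio of -0.33 (-0.37 to -0.29). With 2.24 in forebrain and 2.32 in stop-cassette forelimb, midhindbrain boundary stood above the other 3 maps. This was the remaining pair that stayed called with inflated variance, and its sign was opposite in the second contrast, at 0.06. The largest higher ratio in the region, 0.52 (0.26 to 0.78), joined chr1:120500001-120600000 in the Clasp1 to Tfcp2l1 end with chr1:124300001-124400000 at the far end of the desert, on 297 and 207 contacts. A pair of touching blocks of the same end and the Gli2 interval met chr1:124100001-124200000 more often as well, at 657 against 449 contacts. A group of 2 on the Ralb side, chr1:121600001-121800000, met chr1:124000001-124200000 less often, at 577 against 668 contacts. Near the left end, chr1:120300001-120400000 met chr1:120800001-120900000 less often, at 5500 against 6942 contacts, with a ratio of -0.35 (-0.40 to -0.29). That pair had the opposite sign between stop-cassette forelimb and forebrain, at 0.05.

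The stretch on the right of the strongest boundary, at the left edge of the En1 interval, was followed as a viewpoint of 50 kb (chr1:122470001-122520000) against 40 blocks within 1 Mb. In both tissues its highest peak was at the border of the En1 and Insig2-Ddx18 intervals. The block chr1:123070001-123120000, which spans that border, had 12679 contacts in forelimb and 12022 in midhindbrain boundary. These were 7.10 and 6.84 times the average for the distance, with 7.49 in forebrain and 6.34 in stop-cassette forelimb. The log2 ratio of this peak was 0.05 (0.02 to 0.09), below the minimum of 0.32. Of the 40 blocks, 1 was called higher in forelimb (2.50%) and 1 lower (2.50%). The higher one was chr1:122920001-122970000, at 6094 against 4403 contacts and 2.50 against 1.91 observed over expected, a log2 ratio of 0.39 (0.34 to 0.45). Forebrain had 2.60 and stop-cassette forelimb 2.27 there, so that midhindbrain boundary was the lowest of the 4 maps. The lower one was chr1:123320001-123370000 in the Insig2-Ddx18 interval, at 2947 against 3608 contacts and 2.48 against 3.16, a ratio of -0.35 (-0.42 to -0.28), with 2.28 in forebrain and 2.44 in stop-cassette forelimb. Midhindbrain boundary was the highest of the 4 maps at this block, and forelimb was close to the other 2. All 20 blocks to the left of the boundary were uncalled.

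On the left side of the same boundary, the 50 kb of chr1:122420001-122470000 had 4 of 40 blocks called lower in forelimb (10.0%) and 0 higher (0%), a viewpoint that was chosen after the data had been seen. Of these, 3 were consecutive, from chr1:122570001 to 122720000, and the middle one had 3209 against 4406 contacts, 0.519 against 0.743 observed over expected and a log2 ratio of -0.52 (-0.58 to -0.45). Forebrain had 0.701 and stop-cassette forelimb 0.596 there. The block chr1:122600001-122700000 thus met the strip left of the strongest boundary less often in forelimb as well, while the viewpoint to the right of the boundary met chr1:122620001-122670000 slightly more often, at 0.13.

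Both tissues had 7 boundaries, of which 5 lay at the same position and 6 within 20 kb of each other. The insulation score is the log2 of the mean balanced signal in a 200 kb square across a position over its mean in the map, so that a low score marks a border. The boundary that did not match was that of the Ralb and Marco sides, at 122050001 in both brain maps and at 121910001, 140 kb to the left, in both forelimb maps. It is a shallow one: at 122050001 the score was -0.31 in forelimb and -0.36 in midhindbrain boundary, and at 121910001 it was -0.27 and -0.23, so that forelimb had a minimum at 122050001 as well, and the call there turned on small differences. Of 381 positions, 47 differed by 0.1 or more, 20 higher in forelimb (5.25%) and 27 lower (7.09%), against counting SDs of at most 0.012. The strongest boundary scored -1.05 in forelimb and -0.99 in midhindbrain boundary, a difference of -0.06 that was 0.08 with a 100 kb square. Just to its right, at 122510001, the score was -0.76 in forelimb and -0.57 in midhindbrain boundary, the largest drop of the region at -0.19, with -0.57 in forebrain and -0.67 in stop-cassette forelimb. The dip at the strongest boundary was therefore wider on its En1 side in forelimb.

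The borders of the Gli2 interval were also deeper in forelimb. At its left border (120670001) the score was -0.38 in forelimb, -0.20 in midhindbrain boundary, -0.30 in forebrain and -0.31 in stop-cassette forelimb. At its right border (120980001) it was -0.71, -0.56, -0.65 and -0.52 in the same order. Forelimb had the lowest score of the 4 maps at both, and stop-cassette forelimb was the highest of the 4 at the second. The border between the En1 and Insig2-Ddx18 intervals (123090001) differed by 0.03 and that of the desert (123470001) by 0.07, both shallower in forelimb. The first was -0.03 with raw counts, -0.02 with a 300 kb square and 0.07 with a 100 kb square. The second was 0.05, 0.12 and 0.002 in the same order. Scores were higher in forelimb at 122720001, within the En1 interval, at 0.23 against 0.10. They were also higher at 123360001, at -0.20 against -0.31, and at 122140001, at 0.08 against -0.03. With a 100 kb square these 3 gains fell below 0.1. Of the 47 positions, 34 (72.3%) had the same sign between stop-cassette forelimb and forebrain, against 247 of all 381 (64.8%), and neighbouring positions share most of their squares. The right border of the Gli2 interval was among those with the opposite sign, at -0.15 and 0.14.

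**Figure D4:**
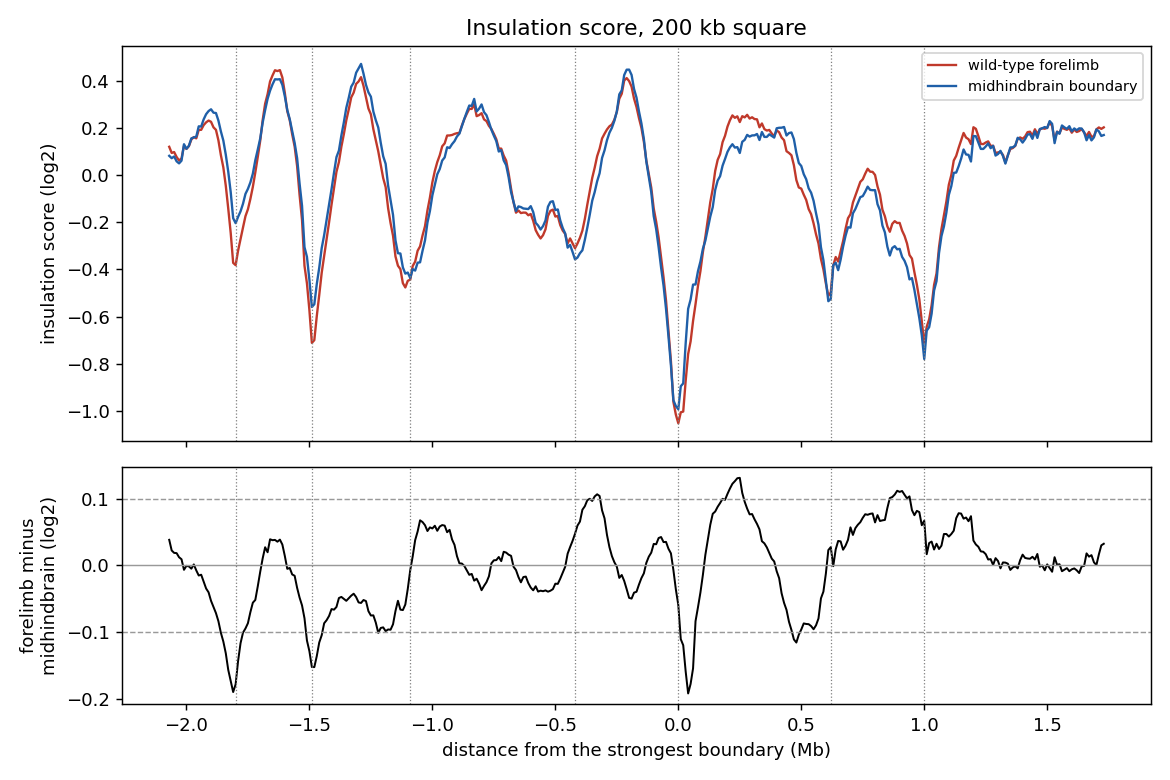
Insulation score (upper plot, log2) in wild-type forelimb and midhindbrain boundary and their difference (lower plot) against the distance from the strongest boundary in Mb; dotted lines mark the boundaries of the forebrain map and dashed lines a difference of 0.1. Both curves dip at all 7 dotted lines, and forelimb lies lower by 0.19 just right of the strongest boundary and by 0.18 and 0.15 at the borders of the Gli2 interval.

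Whether a block leaned to its right or to its left neighbours within 1 Mb differed little. For 40 blocks of 100 kb, the log2 ratio of right over left contacts was compared between the maps with an exact conditional test, and 0 were called in either direction at a minimum of 0.32 (0%), while 34 had a Benjamini-Hochberg adjusted p under 0.05. The largest change was at chr1:121300001-121400000, at the right end of the Gli2-Inhbb interval, where the ratio was -0.40 in forelimb and -0.65 in midhindbrain boundary, with -0.65 in forebrain and -0.10 in stop-cassette forelimb. Both forelimb maps leaned less to the left there than both brain maps.

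The same 100 kb pairs were then read in the second contrast, stop-cassette forelimb over forebrain. Across all 903 pairs, 619 (68.5%) had the same sign in both contrasts, and Pearson's r across block pairs was 0.58. Block pairs share bins, baits and distance scaling and are not independent replicates. All 21 pairs called higher in wild-type forelimb were above 0 in the second contrast, from 0.10 upward and with a median of 0.44, and 13 of them were called there. Of the 22 called lower, 18 were below 0, with a median of -0.36, and 12 were called. None of the 43 was called in the opposite direction. The second contrast itself had 160 calls (17.7%), 93 higher (10.3%) and 67 lower (7.42%), so that agreement in call is read against a larger share than that of the main comparison. At 50 kb, 123 of the 137 higher and 89 of the 110 lower pairs had the same sign in the second contrast, against 64.9% of all pairs, and 1 was called in the opposite direction. The second contrast had 377 higher (10.6%) and 253 lower calls (7.13%) at that size. The called pairs of the 4 large groups were selected on the first contrast, so the groups are given over all block pairs of the rectangle each spans. The rectangles were drawn around the called pairs, so their values in the first contrast still carry that selection. In the smallest, chr1:122600001-122700000 with chr1:123100001-123500000, all 4 of 4 block pairs were called. The loss between the Marco side and the desert was then -0.27 in the first contrast and -0.17 in the second. The gain of the En1 interval with the Gli2 side was 0.30 and 0.29, and the gain of the right end with the desert 0.32 and 0.71. The loss between chr1:122600001-122700000 and chr1:123100001-123500000 was -0.42 and -0.20, but over the whole En1 and Insig2-Ddx18 intervals the contrasts had opposite signs, at -0.13 and 0.04.

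**Figure D5:**
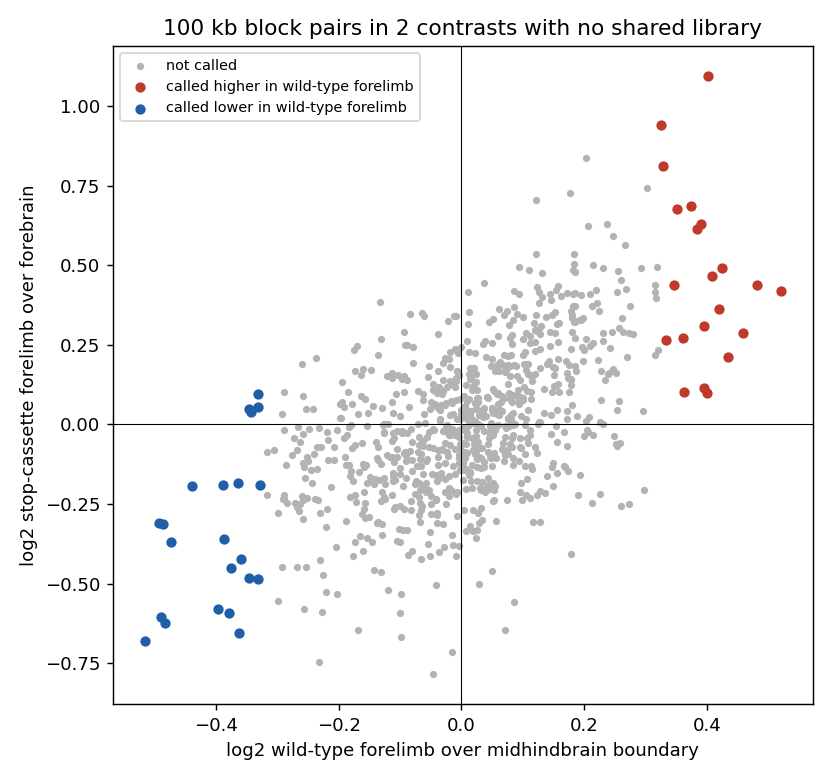
Each point is 1 of 903 pairs of 100 kb blocks, with the log2 ratio of wild-type forelimb over midhindbrain boundary on the x axis and of stop-cassette forelimb over forebrain on the y axis, 2 contrasts that share no library; coloured points were called in the first. All 21 red points lie above 0 on the y axis and 18 of the 22 blue points below it.

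The other pairings of maps place the number of calls. Wild-type forelimb against forebrain had 14 calls (1.55%), and midhindbrain boundary against forebrain, both brain, had 25 (2.77%). The forelimb maps, stop-cassette against wild-type, differed at 79 pairs (8.75%), and stop-cassette forelimb against midhindbrain boundary at 226 (25.0%). These pairings share maps with the main comparison and with each other. The stop-cassette map, of 2 libraries, held 4215764 contacts at 30 kb or more, and the other maps held at least 5288015. The part of depth in the number of calls was not tested. The 43 calls between forelimb and midhindbrain boundary, which are of different library runs, outnumber the 25 between the brain tissues, which are of 1 run. They are fewer than the 79 between forelimb maps of different genotype and library series. The 14 calls between wild-type forelimb and forebrain are fewer than those 25, so limb against brain did not always give more calls than brain against brain.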

How the data were processed

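Capture Hi-C libraries were grouped by the tissue and genotype in the labels, and per the labels the authors merged those of a group into 1 map. Raw maps were deposited as contact counts for each pair of 10 kb bins, and KR maps were deposited as a balanced signal, equal to the count divided by 1 factor per bin. The submitters' processing notes name mm9, Bowtie2 2.3.4.1 and Juicer 1.7.6, and the map names record HiCUP and a mapping quality of 30. Empty bin pairs were read as 0.

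Expected counts were set per 10 kb of distance up to 2 Mb and per 100 kb band beyond, with the KR factors. Pairs of blocks with at least 100 contacts were tested by an exact binomial test, two-sided, with Benjamini-Hochberg adjustment, and called at an adjusted p under 0.05 and a log2 ratio of at least 0.32, with a prior count of 0.5 (Python 3.11.15, numpy 2.4.6, scipy 1.17.1). Boundaries were minima of the insulation score (lowest within 50 kb, and 0.2 or more below the scores reached within 200 kb on each side). The tests were tested on simulated data, drawn with counting error only. The maps varied more, at 21.0 times the counting variance over 100 kb block pairs. The simulation therefore does not give the rate of false calls in these data. Named block pairs were the 8 largest called in each direction at 100 kb and the 5 largest within 1 Mb at 50 kb; single bins of the En1 interval were followed after the values had been seen. Comparisons, members and lists were chosen with earlier results of these data known. Gene names and order came from RefSeq (GRCm38.p6) without coordinates, so promoter viewpoints, and each gene's own blocks, were not run.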

Additional observations from a re-analysis of the deposited data

Results flagged for a closer look

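The 50 kb block pair chr1:122400001-122450000 with chr1:123500001-123550000, which joins the Marco side to the start of the desert, was called lower in wild-type forelimb than in midhindbrain boundary and higher in stop-cassette forelimb than in forebrain. Its log2 ratio was -0.46 (95% counting interval -0.63 to -0.30), on 565 contacts in forelimb and 729 in midhindbrain boundary. In the second contrast it was 0.42 (0.25 to 0.59), on 618 contacts in stop-cassette forelimb and 531 in forebrain. Observed over expected was 0.894 in wild-type forelimb, 1.23 in midhindbrain boundary, 0.905 in forebrain and 1.21 in stop-cassette forelimb, so the forelimb maps lay apart from each other and so did the brain maps. The difference between the contrasts was not tested. It was the 1 pair among 247 called at 50 kb that was called in opposite directions.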

How the results depend on the processing

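At 100 kb the 43 calls became 84 with 1 scaling factor per map (75 higher, 9 lower), 4 with inflated variance, 0 at 1.5-fold, 12 within 1 Mb, 226 with the stop-cassette map in place of wild-type forelimb and 14 with forebrain in place of midhindbrain boundary; the last 2 were added after seeing the data. Their number is limited by construction for the fold, the distance and the inflated variance, and for the others the cause was not tested. With 1 scaling factor per map the median log2 ratio of block pairs over 1 Mb apart was 0.12. At 50 kb the 247 calls became 19 with inflated variance (4 higher, 15 lower), 21 at 1.5-fold and 81 within 1 Mb. With 1 scaling factor they became 343 (285 higher, 58 lower). Of 36 interval pairs, 2 were called with 1 scaling factor. The 160 calls of the second contrast became 305 (269 higher, 36 lower), 3, 27 and 62 with 1 scaling factor, inflated variance, 1.5-fold and distances within 1 Mb. The 47 insulation positions became 23 and 76 with squares of 100 and 300 kb, and 83 with raw counts. As shares of contacts at all distances, the log2 ratios by distance were 0.13 at 30 to 100 kb and 0.15 at 310 to 1000 kb, both turned in sign from -0.03 and -0.01, and 0.17, 0.24 and 0.32 in the other 3 ranges, which goes with the smaller share of contacts within a bin in forelimb; by KR signal the ratio from 1010 to 2000 kb was 0.062 against 0.082. Of the 16 named 100 kb pairs, 1 turned with forebrain in place of midhindbrain boundary (chr1:122200001-122300000 with chr1:124100001-124200000, -0.44 to 0.05) and none under the other alternatives run on them; 4 lost the call with 1 scaling factor, 15 with inflated variance and 16 at 1.5-fold. Merged maps allow no replicate to be left out. No paired analysis was possible because each group's libraries were merged in 1 map. Promoter viewpoints were not run, since no annotation of mm9 was used here.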
